A study of Homo sapiens with 9 samples.

Results

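The 53 genes described here encode factors that make the 3′ end of mRNA, shorten its poly(A) tail and degrade it. The rule takes them by gene name for their known functions and uses no measured value, but the list was written with earlier results of these data known. The gene count table holds 58929 genes, of which 16065 had enough counts to be tested, and all 53 members were among these, with 198 to 25743 counts per library. By role, 19 act in cleavage and polyadenylation, 15 in deadenylation, 9 in decapping and 5′-3′ decay and 10 in the RNA exosome.

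FaDu is an established line of head and neck squamous cell carcinoma (HNSCC), labelled wild type in all groups. Groups of 3 cultures received the vehicle DMSO, the CDK7 inhibitor samuraciclib at 250 nM or the CDK7 inhibitor YKL-5-124 at 250 nM, for 48 h by the treatment protocol and 72 h by the design of the series. RNA was sequenced after poly(A) selection, which enriches transcripts with a tail. All values come from 1 cell line, which limits them as a model of HNSCC.

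Libraries held 18096180 to 28018126 counts. Levels are given as CPM, counts per 1000000 of a library scaled with edgeR's TMM factors. All 8 squamous epithelial markers were detected (their summed level was 5361 to 5639 CPM with DMSO, 5646 to 5971 CPM in YKL-5-124 libraries and 6251 to 6472 CPM in samuraciclib libraries), and the part of this difference in the results was not tested. The 6 fibroblast markers summed to at most 6.12 CPM in any group, the 6 leukocyte markers to at most 4.18 CPM and the 4 endothelial markers to at most 32.1 CPM. In each of these lists 1 marker was at 0 in all libraries, LUM and KDR being among them. In the third DMSO library and in the second library of either inhibitor the 7SL RNA gene RN7SL2 stood at 24.9 to 59.3 CPM, against 696 to 981 CPM in the other 6, and counts of calls are given with and without these 3 libraries. A library is named below by its group and replicate number, as in DMSO 3.

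Most mRNAs end where the cleavage and polyadenylation specificity factor (CPSF), with cleavage factors and the cleavage stimulation factor (CstF), cuts the nascent transcript downstream of the poly(A) signal and a poly(A) polymerase adds a tail. In the cytoplasm the tail is shortened first by PAN2-PAN3 and then by CCR4-NOT, after which the cap is removed by DCP2 and the body is degraded from the 5′ end by XRN1 or from the 3′ end by the exosome. CDK7, the kinase of the general transcription factor TFIIH, phosphorylates the tail domain of RNA polymerase II, to which 3′ end factors such as PCF11 bind during transcription.

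To show the DNA in front of members that were lower with each inhibitor, 4 promoter stretches from RefSeq (GRCh38.p14) are printed from 5′ to 3′ on the gene's strand. Each is the longest run of bases within 200 before the annotated start that lies in no exon. Matches to the GC box GGGCGG or to the CCAAT box, on either strand, are in capitals. CPSF2 and SYMPK, also lower with each inhibitor, had no such run of at least 100 bases and are not printed. The stretches of PARN, EXOSC3 and EXOSC8 lie within the longer gene models of the deposited table, and that of PAN2 lies outside it.
PAN2, chr12:56334054-56334173, - strand: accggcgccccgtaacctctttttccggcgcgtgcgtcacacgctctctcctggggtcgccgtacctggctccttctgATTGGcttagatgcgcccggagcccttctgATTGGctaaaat
PARN, chr16:14630300-14630460, - strand: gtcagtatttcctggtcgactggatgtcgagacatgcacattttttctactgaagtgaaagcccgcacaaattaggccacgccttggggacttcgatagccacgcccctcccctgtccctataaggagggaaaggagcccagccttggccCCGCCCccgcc
EXOSC3, chr9:37785093-37785292, - strand: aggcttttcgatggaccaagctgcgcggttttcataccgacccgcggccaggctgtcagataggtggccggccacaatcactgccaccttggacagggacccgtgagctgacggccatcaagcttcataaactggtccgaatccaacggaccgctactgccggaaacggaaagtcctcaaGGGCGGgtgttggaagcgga
EXOSC8, chr13:37000586-37000696, + strand: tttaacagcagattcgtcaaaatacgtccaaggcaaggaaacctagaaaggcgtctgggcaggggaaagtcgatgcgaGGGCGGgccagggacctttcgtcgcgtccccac

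The PAN2 stretch held 2 CCAAT matches, 95 and 65 bases before the start, and PARN, EXOSC3 and EXOSC8 held 1 GC box each, 50, 20 and 122 bases before it. PAN2 had 1 more CCAAT match outside the printed stretch, 34 bases before the start. RefSeq promoters were matched by symbol for 47 of the 53 members. Over 200 bases and both strands, the GC box was found in 34 of these 47 (72.3%) and in 40.1% of all 35116 promoters, and the CCAAT box in 20 of 47 (42.6%) and in 28% of all. The TATA letters TATAAA were in none of the 47 member promoters and in 8.59% of all. Other letters searched were CCGGAAG (12.8% of members and 7.71% of all), TGACGTCA (6.38% and 1.57%) and CACGTG (6.38% and 5.49%). The rest were GCGCATGCG (2.13% and 1.53%), TTTCCCGC (2.13% and 1.11%) and AAGATGGC (0% and 1.1%). The median GC content was 65% for members and 59% for all promoters. Members count once each and are all expressed here, whereas the set of all promoters was not filtered by expression and can hold several per gene. Whether these shares differ from those of other expressed genes was not tested. These matches describe the letters alone, and the members lie on 20 chromosomes.

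In DMSO-treated cells the member transcripts spanned 2.73 to 75.2 CPM per kb of gene model, with a median of 12.2. The highest was PAPOLA, the main nuclear poly(A) polymerase, at 75.2 ± 1.03 CPM per kb (SD, n = 3), and the lowest was its paralog PAPOLG at 2.73 ± 0.135 CPM per kb. TOB2, an adaptor that brings CCR4-NOT to poly(A)-binding protein, stood at 62.03 ± 7.06 CPM per kb and NUDT21, the RNA-binding subunit of cleavage factor I, at 58.6 ± 0.8297, closer to each other than to PAPOLA. CNOT1, the scaffold of CCR4-NOT, stood at 40.2 ± 0.586 CPM per kb, whereas its nuclease subunits CNOT6L and CNOT7 stood at 3.01 ± 0.0612 and 12.1 ± 0.388 CPM per kb. Of the 5′-3′ exonucleases, the nuclear XRN2 stood at 33.6 ± 1.45 CPM per kb and its cytoplasmic relative XRN1 at 4.34 ± 0.435. Exosome subunits occupied a narrow band, from 7.06 ± 0.228 CPM per kb for EXOSC7 to 19.1 ± 0.1801 for EXOSC5.

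**Figure D1:**
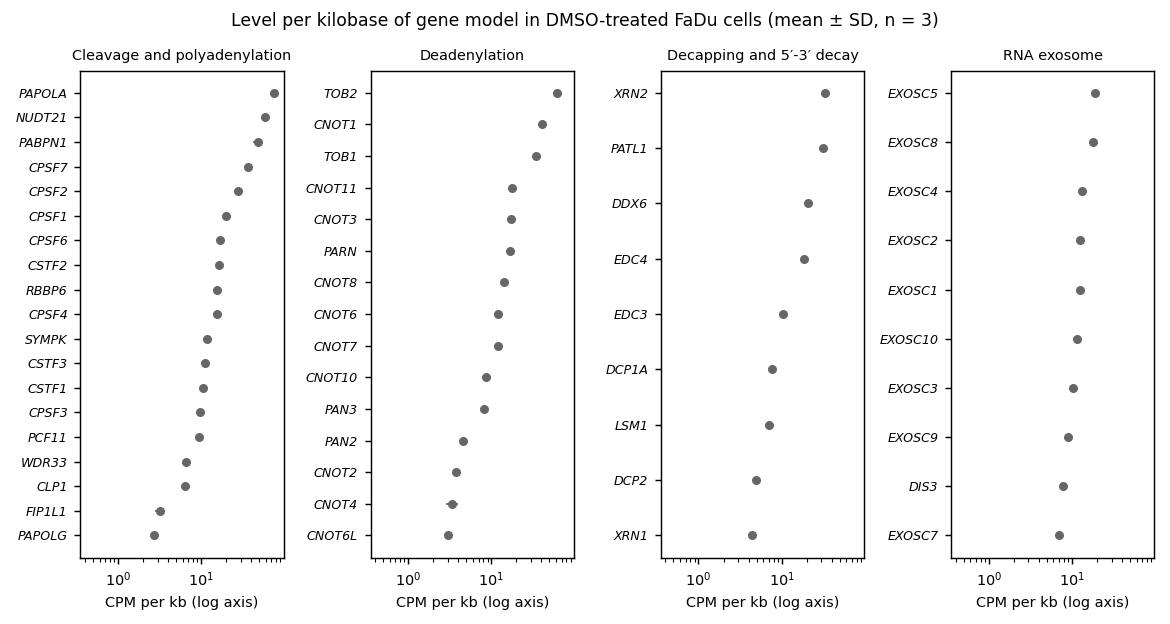
Level of each member in DMSO-treated FaDu cells, as CPM per kb of gene model on a log axis, by role and in order of level. Points are means of 3 libraries and bars are SD. PAPOLA, at 75.2 CPM per kb, and PAPOLG, at 2.73, mark the ends of the range.

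To see which of these factors changed upon YKL-5-124 treatment, the 3 treated libraries were compared with the 3 DMSO libraries. Of the 53 members, 9 were downregulated and 0 were upregulated. The downregulated genes were CPSF2, SYMPK, CPSF6 and CPSF7 of the cleavage machinery, the deadenylases PAN2 and PARN, and EXOSC3, EXOSC8 and EXOSC10 of the exosome, with log2 fold changes from -1.16 (PAN2) to -0.52 (CPSF6). A call required an adjusted p below 0.05 in edgeR's quasi-likelihood test, corrected over all 16065 genes, together with a log2 fold change above 0.5 or under -0.5, and ± after a log2 fold change is its SE. By this rule 21.8% of all genes tested were called, 9.93% lower and 11.9% higher, and the 9 members are 17% of the 53. Among the 8650 genes at least as abundant as the lowest member, 10.1% were called lower and 5.09% higher. As bulk RNA was measured, fewer cells of a type and less RNA per cell cannot be told apart.

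Without the fold threshold, 20 members were lower and 8 higher at an adjusted p below 0.05 upon YKL-5-124, where 25.2% and 24.1% of all genes were. The count of 0 upregulated members held with edgeR and with DESeq2. At an unadjusted p below 0.05, 9 members were higher and 21 lower, where 4421 and 4495 of all 16065 genes were. Unadjusted counts of the lists below are to be read beside such background counts. The median log2 change of the members was -0.078, beside 0.014 over all genes. With library size alone as the scaling, these medians became 0.05016 and 0.14, so that the sign of the members' median depended on the scaling. Scaled that way, 5 members were called lower and PATL1 higher, where 1052 and 2802 of all genes were. The calls of CPSF6, CPSF7, PARN and EXOSC10 were lost. The calls of CPSF6, CPSF7 and PARN lay near the threshold: without DMSO 3 those of CPSF6 (-0.47) and PARN (-0.49) were lost, and without the 3 libraries low in 7SL RNA 8 members were called, CPSF6 (-0.49) being lost.

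Upon samuraciclib treatment, 7 members were downregulated and 1 was upregulated. CPSF2, SYMPK and PCF11 of the cleavage machinery, the deadenylases PAN2 and PARN and the exosome subunits EXOSC3 and EXOSC8 were lower, with changes from -1.35 (PAN2) to -0.56 (PCF11) on the log2 scale. TOB1, which like TOB2 links CCR4-NOT to poly(A)-binding protein and restrains proliferation, was higher by 0.795. Of all genes tested, 17.7% were called, 9.55% lower and 8.17% higher, against 13.2% and 1.89% of the members. Among the 8650 genes at least as abundant as the lowest member, 8.5% were lower and 4.27% higher. Without the fold threshold, 21 members were lower and 7 higher, where 23.1% and 21.0% of all genes were. At an unadjusted p below 0.05, 22 members were lower and 12 higher, where 4238 and 4023 of all 16065 genes were. The median change of the members was -0.074 and that of all genes 0.0012, or -0.015 and 0.0604 with library size alone as the scaling. The same 3 DMSO libraries serve in both comparisons, so their results are not independent and are set side by side below, with YKL-5-124 first where 2 values are given. Without the 3 libraries low in 7SL RNA the counts were again 7 lower and 1 higher.

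**Figure D2:**
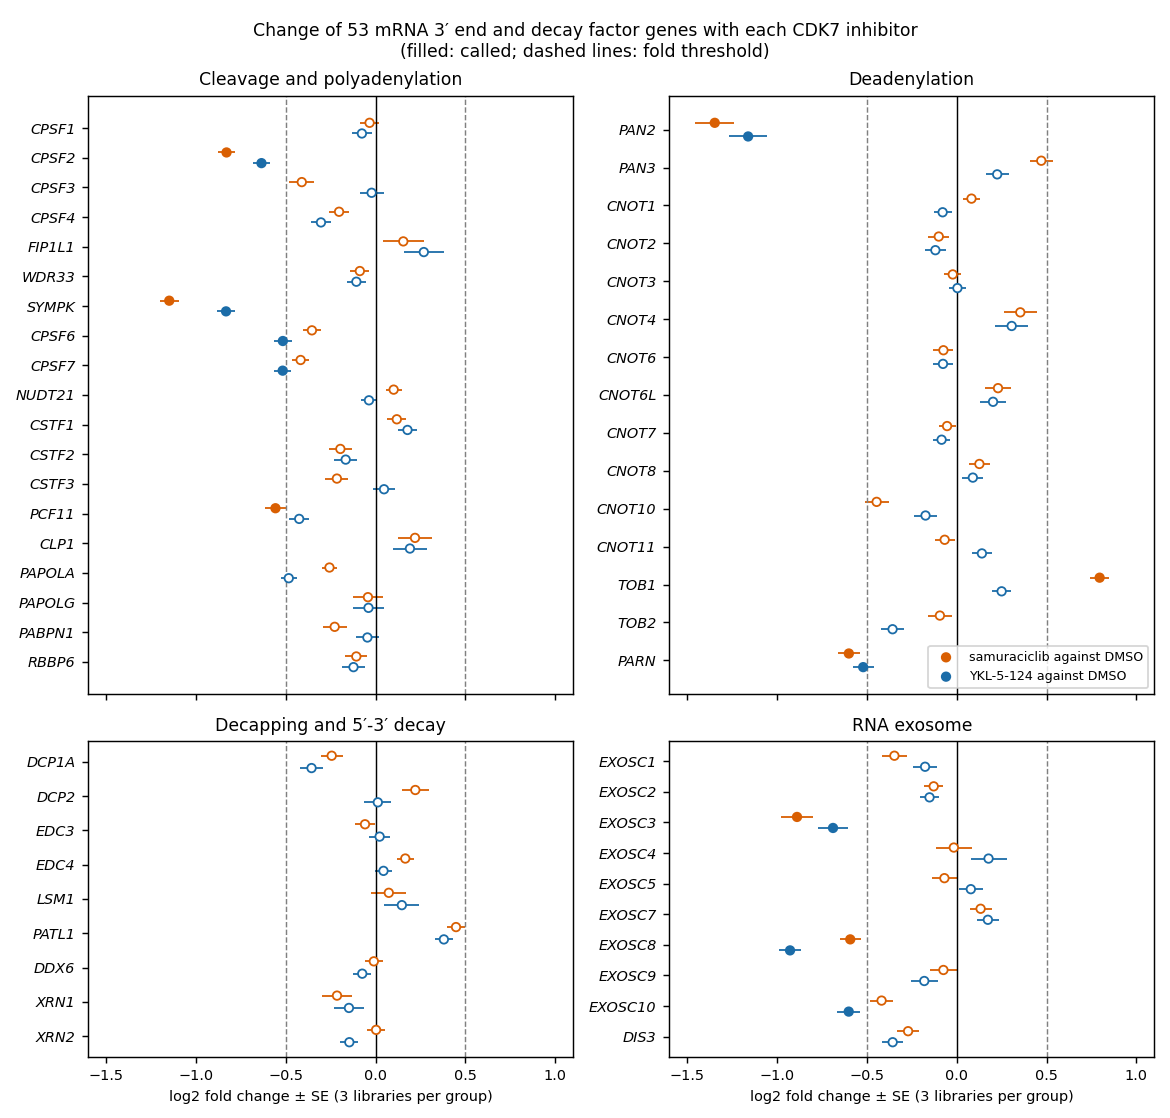
Log2 fold change of each of the 53 members upon samuraciclib (orange) and upon YKL-5-124 (blue) against the same 3 DMSO libraries, by role. Bars are SE, filled points are called and dashed lines mark the fold threshold of 0.5. PAN2 lies farthest to the left with each inhibitor and TOB1 is the filled point on the right.

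Of the 6 CPSF subunits, CPSF2 was the one called with each inhibitor. CPSF2, the catalytically inactive partner of the endonuclease CPSF3 (chromosome 14, 92121937 to 92172145, + strand, GRCh38), stood at 377, 373 and 375 CPM in the DMSO libraries, 220.01, 207 and 206 CPM with samuraciclib and 246, 247 and 232 CPM with YKL-5-124. All inhibitor libraries lay far below all DMSO libraries, and those with samuraciclib lay below those with YKL-5-124. CPSF2 fell 1.55-fold upon YKL-5-124 (log2 -0.64 ± 0.046, adjusted p = 3.00e-09) and 1.78-fold upon samuraciclib (-0.83 ± 0.046, adjusted p = 2.50e-10). CPSF3, which cuts the transcript, stood at 36.4, 37.5 and 35.6 CPM in the DMSO libraries, 29.4, 26.3 and 26.5 CPM with samuraciclib and 36.8, 37.3 and 33.5 CPM with YKL-5-124. The YKL-5-124 libraries overlapped the DMSO libraries, while the samuraciclib libraries lay below both. Its log2 changes were -0.022 ± 0.067 and -0.41 ± 0.069, adjusted p = 0.8102 and 9.28e-05, the latter within the fold threshold.

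The other CPSF subunits were not called. CPSF4, which contacts the poly(A) signal, was at -0.304 ± 0.057, adjusted p = 2.56e-04 with YKL-5-124 and -0.203 ± 0.057, adjusted p = 0.00745 with samuraciclib, within the threshold, and on the opposite strand PTCD1 covers its whole span and ATP5MF, at 83.1 CPM on average, 48.2% of it, so that reads could be shared. The scaffold CPSF1, the signal-binding subunit WDR33 and FIP1L1, which recruits the polymerase, had log2 values between -0.11 and 0.27 in both comparisons with adjusted p of 0.0551 or more, and another model on the same strand covers 99.8% of FIP1L1. RBBP6, which activates cleavage, stood at -0.12 ± 0.062 and -0.11 ± 0.062 (adjusted p = 0.1095 and 0.172).

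SYMPK encodes symplekin, a scaffold that joins CPSF to CstF (chromosome 19, 45815410 to 45863290, - strand). It stood at 122, 124 and 125 CPM in the DMSO libraries, 55.1, 53.7 and 58.5 CPM with samuraciclib and 71.7, 65.8 and 70.9 CPM with YKL-5-124. The DMSO values lay within 3 CPM of each other and every treated library was far below them, lowest with samuraciclib. The fall was 1.78-fold upon YKL-5-124 (log2 -0.83 ± 0.051, adjusted p = 3.14e-10) and 2.22-fold upon samuraciclib (-1.15 ± 0.052, adjusted p = 2.25e-11). As ratios within a library, which do not depend on the scaling, SYMPK to CPSF1 was 1.01, 1.01 and 1.01 with DMSO, 0.464, 0.453 and 0.484 with samuraciclib and 0.5996, 0.6298 and 0.572 with YKL-5-124. The ratio of CPSF2 to CPSF1 was 3.11, 3.06 and 3.04 with DMSO, 1.85, 1.74 and 1.71 with samuraciclib and 2.06, 2.36 and 1.87 with YKL-5-124. Neither ratio overlapped between DMSO and an inhibitor. Each sets a member called lower against CPSF1, which was not called, so this separation is no further test.

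Cleavage factor I pairs NUDT21, which binds RNA upstream of the cut, with a larger subunit, CPSF6 or CPSF7. CPSF6 stood at 132, 132 and 144 CPM in the DMSO libraries, 106, 109.8 and 104 CPM with samuraciclib and 93.2, 96.8 and 95.4 CPM with YKL-5-124. CPSF7 stood at 223, 216 and 224 CPM in the DMSO libraries, 164, 176 and 157 CPM with samuraciclib and 152, 158 and 155 CPM with YKL-5-124. For both genes every treated library was below every DMSO library. The log2 change of CPSF6 was -0.52 ± 0.049, adjusted p = 9.00e-08 upon YKL-5-124, past the threshold, and -0.35 ± 0.049, adjusted p = 1.04e-05 upon samuraciclib, within it. The values of CPSF7 were -0.52 ± 0.047 and -0.42 ± 0.046, adjusted p = 4.89e-08 and 9.16e-07, again past the threshold with YKL-5-124 alone. NUDT21 stood at 345, 354 and 347 CPM in the DMSO libraries, 370.4, 375 and 376 CPM with samuraciclib and 341, 351 and 328 CPM with YKL-5-124. Its log2 changes were -0.037 ± 0.045 and 0.100 ± 0.045, adjusted p = 0.5198 and 0.0773, neither past the test. The ratio of CPSF6 to CPSF7 overlapped between the groups, at 0.591, 0.6101 and 0.641 with DMSO, 0.642, 0.625 and 0.661 with samuraciclib and 0.615, 0.614 and 0.616 with YKL-5-124.

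PCF11 belongs to cleavage factor II and acts in transcription termination (chromosome 11, 83156988 to 83187451, + strand). It stood at 92.7, 90.01 and 97.4 CPM in the DMSO libraries, 59.99, 67.04 and 63.5 CPM with samuraciclib and 73.1, 70.1 and 65.7 CPM with YKL-5-124, all treated libraries being below all DMSO libraries. Its change was -0.56 ± 0.057, adjusted p = 3.42e-07 upon samuraciclib, which was called, and -0.43 ± 0.057, adjusted p = 6.11e-06 upon YKL-5-124, which was within the threshold. With library size alone as the scaling the samuraciclib value was -0.498 and the call was lost. The difference between the inhibitors was itself not past the test (0.13 ± 0.058, adjusted p = 0.104). Its partner CLP1 had log2 values of 0.19 ± 0.093 and 0.22 ± 0.093 (adjusted p = 0.0971 and 0.0641).

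CstF binds the downstream element through CSTF2, which stood at 36.1, 38.03 and 34.8 CPM in the DMSO libraries, 30.5, 31.4 and 33.1 CPM with samuraciclib and 31.7, 32.4 and 32.8 CPM with YKL-5-124. The treated libraries lay just below the DMSO libraries, with log2 changes of -0.17 ± 0.063 and -0.196 ± 0.064, adjusted p = 0.0366 and 0.0178, small beside the threshold. CSTF1 was at 0.18 ± 0.053 (adjusted p = 0.00953) and 0.12 ± 0.053 (adjusted p = 0.0796), and CSTF3 at 0.047 ± 0.063 (adjusted p = 0.565) and -0.22 ± 0.064 (adjusted p = 0.0104).

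PAPOLA stood at 945, 964 and 969.7 CPM in the DMSO libraries, 818, 799 and 793 CPM with samuraciclib and 684, 704 and 671 CPM with YKL-5-124. The groups were fully separated, DMSO being highest and YKL-5-124 lowest. Its change upon YKL-5-124, -0.48 ± 0.044, adjusted p = 5.33e-08, was just short of the fold threshold, and without YKL-5-124 replicate 2 it passed (-0.502). Upon samuraciclib it was -0.26 ± 0.044, adjusted p = 1.07e-04. PAPOLG stood at 22.3, 22.7 and 24.5 CPM in the DMSO libraries, 22.9, 23.4 and 21.3 CPM with samuraciclib and 21.9, 25.1 and 20.6 CPM with YKL-5-124, overlapping in all groups (log2 -0.0396 ± 0.084 and -0.043 ± 0.084, adjusted p = 0.724 and 0.713). PABPN1, which coats the new tail, stood at 176, 172 and 212 CPM in the DMSO libraries, 152, 157 and 170.01 CPM with samuraciclib and 174, 187 and 182 CPM with YKL-5-124. The samuraciclib libraries lay below the others (-0.23 ± 0.066, adjusted p = 0.00875, within the threshold), and YKL-5-124 overlapped DMSO (-0.046 ± 0.066, adjusted p = 0.592). The read-through model BCL2L2-PABPN1 covers 83.3% of PABPN1 on the same strand, so counting could split its reads. Over the 19 genes of cleavage and polyadenylation, YKL-5-124 gave 4 lower and 0 higher (with DESeq2 also 4 and 0, and 2 higher at an unadjusted p below 0.05), and samuraciclib 3 lower and 0 higher (DESeq2 3 and 0, and 3 higher at an unadjusted p below 0.05). The lower shares were 21.1% and 15.8%, where 9.93% and 9.55% of all genes were lower and 11.9% and 8.17% higher.

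PAN2 is the nuclease that starts deadenylation (chromosome 12, 56316223 to 56334053, - strand), and its promoter held the CCAAT matches printed above. It stood at 32.3, 30.3 and 37.1 CPM in the DMSO libraries, 11.2, 15.9 and 12.1 CPM with samuraciclib and 14.4, 15.2 and 15.1 CPM with YKL-5-124. Every treated library lay far below every DMSO library, and the inhibitors overlapped each other. Upon samuraciclib PAN2 fell 2.54-fold (log2 -1.35 ± 0.11, adjusted p = 1.95e-08) and upon YKL-5-124 2.24-fold (-1.16 ± 0.11, adjusted p = 6.95e-08). PAN3, which tethers PAN2 to poly(A)-binding protein, stood at 53.3, 50.3 and 52.5 CPM in the DMSO libraries, 72.4, 71.96 and 71.9 CPM with samuraciclib and 60.8, 66.6 and 54.8 CPM with YKL-5-124. Its libraries with either inhibitor were above those with DMSO, and its changes, 0.47 ± 0.063, adjusted p = 7.57e-06 upon samuraciclib and 0.23 ± 0.063, adjusted p = 0.00638 upon YKL-5-124, were within the threshold. With library size alone as the scaling the samuraciclib value was 0.53 and passed. The ratio of PAN2 to PAN3 was 0.606, 0.601 and 0.706 with DMSO, 0.155, 0.2204 and 0.169 with samuraciclib and 0.236, 0.228 and 0.276 with YKL-5-124.

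The 10 CCR4-NOT genes gave no call in any comparison. Of all genes, 21.8% were called upon YKL-5-124, 17.7% upon samuraciclib and 6.92% between the inhibitors. CNOT1 stood at 443, 431 and 436 CPM in the DMSO libraries, 480.03, 474 and 433 CPM with samuraciclib and 417, 424 and 399.8 CPM with YKL-5-124. Its log2 changes were -0.078 ± 0.050 and 0.082 ± 0.050, adjusted p = 0.203 and 0.1900. The deadenylase CNOT7 stood at 129, 137 and 131 CPM in the DMSO libraries, 131, 129.9 and 121 CPM with samuraciclib and 121, 126 and 126 CPM with YKL-5-124. Its paralog CNOT8 stood at 54.5, 57.1 and 53.4 CPM in the DMSO libraries, 63.4, 60.2 and 56.3 CPM with samuraciclib and 58.5, 60.6 and 56.2 CPM with YKL-5-124. The groups lay close together or overlapped for both, and their log2 changes ran from -0.084 to 0.13 with adjusted p of 0.0852 or more. The other nuclease pair is CNOT6 and CNOT6L. CNOT6 stood at 85.5, 73.3 and 81.4 CPM in the DMSO libraries, 77.3, 74.2 and 76.7 CPM with samuraciclib and 76.6, 76.6 and 74.6 CPM with YKL-5-124. CNOT6L stood at 27.7, 28.8 and 28.03 CPM in the DMSO libraries, 34.1, 32.04 and 32.99 CPM with samuraciclib and 32.8, 34.9 and 29.3 CPM with YKL-5-124. CNOT6 overlapped between the groups (-0.076 ± 0.056 and -0.074 ± 0.056, adjusted p = 0.272 and 0.3002), whereas CNOT6L was above every DMSO library with either inhibitor (0.202 ± 0.071 and 0.23 ± 0.072, adjusted p = 0.0254 and 0.0140, within the threshold). The ubiquitin ligase CNOT4 was at 0.31 ± 0.093 and 0.35 ± 0.093, adjusted p = 0.0110 and 0.00464, and CNOT10 at -0.17 ± 0.066 and -0.45 ± 0.067, adjusted p = 0.0360 and 2.90e-05, all within the threshold. CNOT11, which forms a module with CNOT10, was at 0.14 ± 0.056 (adjusted p = 0.0447) upon YKL-5-124 and -0.067 ± 0.056 (adjusted p = 0.356) upon samuraciclib. CNOT2 and CNOT3 had log2 values between -0.12 and 0.00404, with adjusted p of 0.0967 or more.

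TOB1 (chromosome 17, 50862223 to 50867978, - strand) stood at 84.6, 81.6 and 93.2 CPM in the DMSO libraries, 149, 147 and 155 CPM with samuraciclib and 101, 102 and 106 CPM with YKL-5-124. The 3 groups did not overlap, with DMSO lowest and samuraciclib highest. TOB1 rose 1.74-fold upon samuraciclib (log2 0.795 ± 0.053, adjusted p = 1.64e-09), while its change upon YKL-5-124, 0.25 ± 0.053, adjusted p = 7.25e-04, was within the threshold. TOB2 stood at 277, 254 and 318 CPM in the DMSO libraries, 263, 263 and 271 CPM with samuraciclib and 207, 225 and 231 CPM with YKL-5-124. Here YKL-5-124 was lowest and samuraciclib overlapped DMSO (-0.36 ± 0.065 and -0.094 ± 0.065, adjusted p = 1.80e-04 and 0.257, neither called). The TOB1 to TOB2 ratio was 0.306, 0.321 and 0.293 with DMSO, 0.565, 0.561 and 0.572 with samuraciclib and 0.486, 0.453 and 0.4596 with YKL-5-124.

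PARN, a deadenylase that also trims the 3′ ends of small nucleolar and telomerase RNAs (chromosome 16, 14435701 to 14632728, - strand), stood at 72.5, 72.8 and 77.5 CPM in the DMSO libraries, 49.8, 50.9 and 46.3 CPM with samuraciclib and 49.5, 55.5 and 50.3 CPM with YKL-5-124. The treated libraries were all below the DMSO libraries and overlapped each other. PARN fell 1.52-fold upon samuraciclib (log2 -0.600 ± 0.060, adjusted p = 2.43e-07) and 1.43-fold upon YKL-5-124 (-0.52 ± 0.059, adjusted p = 9.56e-07), where leaving out DMSO 3, YKL-5-124 1 or YKL-5-124 3 ended the call, with values from -0.497 to -0.488. Over the 15 genes of deadenylation, YKL-5-124 gave 2 lower and 0 higher (DESeq2 also 2 and 0, and 5 higher at an unadjusted p below 0.05), and samuraciclib 2 lower and 1 higher. The lower share was 13.3% with each inhibitor, and the higher share 6.67% with samuraciclib. Of all genes, 9.93% and 9.55% were lower and 11.9% and 8.17% higher.

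**Figure D3:**
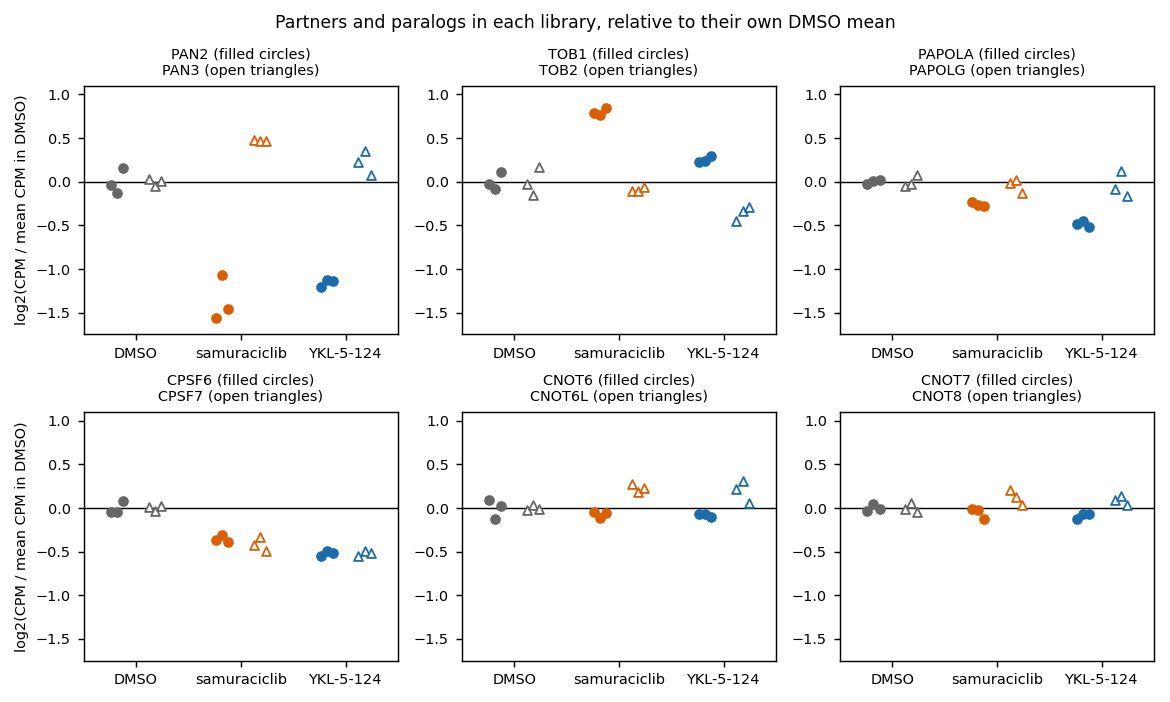
Log2 of the CPM in each library over the mean CPM with DMSO, for PAN2 and PAN3 and for 5 pairs of paralogs, by group of 3 libraries. PAN2 falls below every PAN3 value with each inhibitor, TOB1 lies above TOB2 with each inhibitor, and CPSF6 and CPSF7 lie at like heights in every group.

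None of the 9 genes of decapping and 5′-3′ decay was called against DMSO by edgeR or by DESeq2. With edgeR, 21.8% of all genes were called upon YKL-5-124 and 17.7% upon samuraciclib. At an unadjusted p below 0.05, 1 was higher and 2 lower upon YKL-5-124, and 3 were higher and 2 lower upon samuraciclib. DCP2, the decapping enzyme, stood at 46.8, 48.04 and 52.4 CPM in the DMSO libraries, 53.997, 62.9 and 54.99 CPM with samuraciclib and 51.8, 52.4 and 44.5 CPM with YKL-5-124. The samuraciclib libraries were above the DMSO libraries (0.22 ± 0.074, adjusted p = 0.0207, within the threshold) and the YKL-5-124 libraries overlapped them (0.012 ± 0.074, adjusted p = 0.906). Its activator DCP1A was at -0.36 ± 0.062, adjusted p = 1.05e-04 upon YKL-5-124 and -0.24 ± 0.061, adjusted p = 0.00326 upon samuraciclib. PATL1, which bridges deadenylated mRNA and the decapping machinery, had the highest values of the list, 0.38 ± 0.051 and 0.45 ± 0.051, adjusted p = 7.35e-06 and 1.33e-06, both within the threshold, and with library size alone as the scaling both were 0.51 and passed.

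The enhancers of decapping EDC3 and EDC4, the helicase DDX6 and LSM1 had log2 values between -0.074 (DDX6, YKL-5-124) and 0.17 (EDC4, samuraciclib), and that of EDC4 had an adjusted p of 0.0102. XRN1 stood at 49.7, 48.4 and 58.01 CPM in the DMSO libraries, 47.2, 48.1 and 39.5 CPM with samuraciclib and 47.5, 50.5 and 43.2 CPM with YKL-5-124. XRN2, which also acts on the transcript left on the polymerase after cleavage, stood at 109.8, 118 and 119 CPM in the DMSO libraries, 115, 122 and 111 CPM with samuraciclib and 104, 107 and 102 CPM with YKL-5-124. XRN1 was at -0.15 ± 0.083, adjusted p = 0.147 upon YKL-5-124 and -0.21 ± 0.083, adjusted p = 0.0440 upon samuraciclib. XRN2 was at -0.15 ± 0.050 and 0.0027 ± 0.050, adjusted p = 0.0222 and 0.972, with YKL-5-124 below every DMSO library and samuraciclib overlapping them.

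The exosome is a ring of subunits with a cap that guides RNA to the nucleases DIS3 and EXOSC10. The cap subunit EXOSC3 (chromosome 9, 37766978 to 37801437, - strand) stood at 29.4, 30.997 and 32.96 CPM in the DMSO libraries, 16.98, 15.9 and 17.7 CPM with samuraciclib and 19.9, 20.996 and 17.03 CPM with YKL-5-124. All treated libraries were below the DMSO libraries, and the inhibitors overlapped. EXOSC3 fell 1.85-fold upon samuraciclib (log2 -0.89 ± 0.087, adjusted p = 1.91e-07) and 1.61-fold upon YKL-5-124 (-0.69 ± 0.085, adjusted p = 2.63e-06). Another model, AL138752.2, covers its whole span on the same strand at 0.0646 CPM, TRMT10B overlaps 34.8% of it on the opposite strand, and whether counting used the strand is not stated. The ratio of EXOSC3 to EXOSC2, another cap subunit, was 0.539, 0.585 and 0.6304 with DMSO, 0.352, 0.323 and 0.363 with samuraciclib and 0.414, 0.4204 and 0.373 with YKL-5-124.

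EXOSC8, a subunit of the ring (chromosome 13, 36998816 to 37009613, + strand), stood at 63.1, 68.4 and 63.7 CPM in the DMSO libraries, 41.97, 45.4 and 42.04 CPM with samuraciclib and 32.4, 35.2 and 34.98 CPM with YKL-5-124. The 3 groups did not overlap and YKL-5-124 was lowest. EXOSC8 fell 1.902-fold upon YKL-5-124 (log2 -0.93 ± 0.060, adjusted p = 6.30e-10) and 1.51-fold upon samuraciclib (-0.59 ± 0.059, adjusted p = 2.56e-07). Its ratio to the ring subunit EXOSC9 was 1.58, 1.53 and 1.54 with DMSO, 0.998, 1.08 and 1.18 with samuraciclib and 0.894, 0.883 and 1.003 with YKL-5-124. On the opposite strand, ALG5 (25.3 CPM on average) covers 13.4% of the EXOSC8 span and SUPT20H (45.3 CPM) 2.8% of it. CCNA2 (114 CPM) likewise covers 3.68% of EXOSC9, so that reads of either gene could be shared. The nuclear nuclease EXOSC10 stood at 63.4, 73.9 and 68.1 CPM in the DMSO libraries, 50.4, 53.7 and 49.5 CPM with samuraciclib and 42.9, 47.6 and 44.8 CPM with YKL-5-124. It fell 1.52-fold upon YKL-5-124 (-0.601 ± 0.064, adjusted p = 3.87e-07) and stayed within the threshold upon samuraciclib (-0.42 ± 0.063, adjusted p = 3.16e-05). DIS3, the other nuclease, stood at 81.1, 90.4 and 81.3 CPM in the DMSO libraries, 71.8, 70.96 and 66.7 CPM with samuraciclib and 68.2, 68.4 and 60.8 CPM with YKL-5-124. All treated libraries were below the DMSO libraries, with changes of -0.36 ± 0.060 and -0.27 ± 0.060, adjusted p = 8.28e-05 and 0.00123, within the threshold.

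Of the remaining exosome genes, EXOSC1 was at -0.18 ± 0.067 and -0.35 ± 0.068, adjusted p = 0.0372 and 4.09e-04, and EXOSC2 at -0.15 ± 0.054 and -0.13 ± 0.054, adjusted p = 0.0279 and 0.0650. EXOSC7 was at 0.17 ± 0.061, adjusted p = 0.0242 upon YKL-5-124 and 0.13 ± 0.061, adjusted p = 0.0853 upon samuraciclib. EXOSC4, EXOSC5 and EXOSC9 had log2 values between -0.18 and 0.18, with adjusted p of 0.0525 or more. Over the 10 exosome genes, YKL-5-124 gave 3 lower and 0 higher (with DESeq2 3 and 0, and 1 higher at an unadjusted p below 0.05), and samuraciclib 2 lower and 0 higher (DESeq2 2 and 0, and 1 higher at an unadjusted p below 0.05). The lower shares were 30% and 20% of a short list, where 9.93% and 9.55% of all genes were lower and 11.9% and 8.17% higher.

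**Figure D4:**
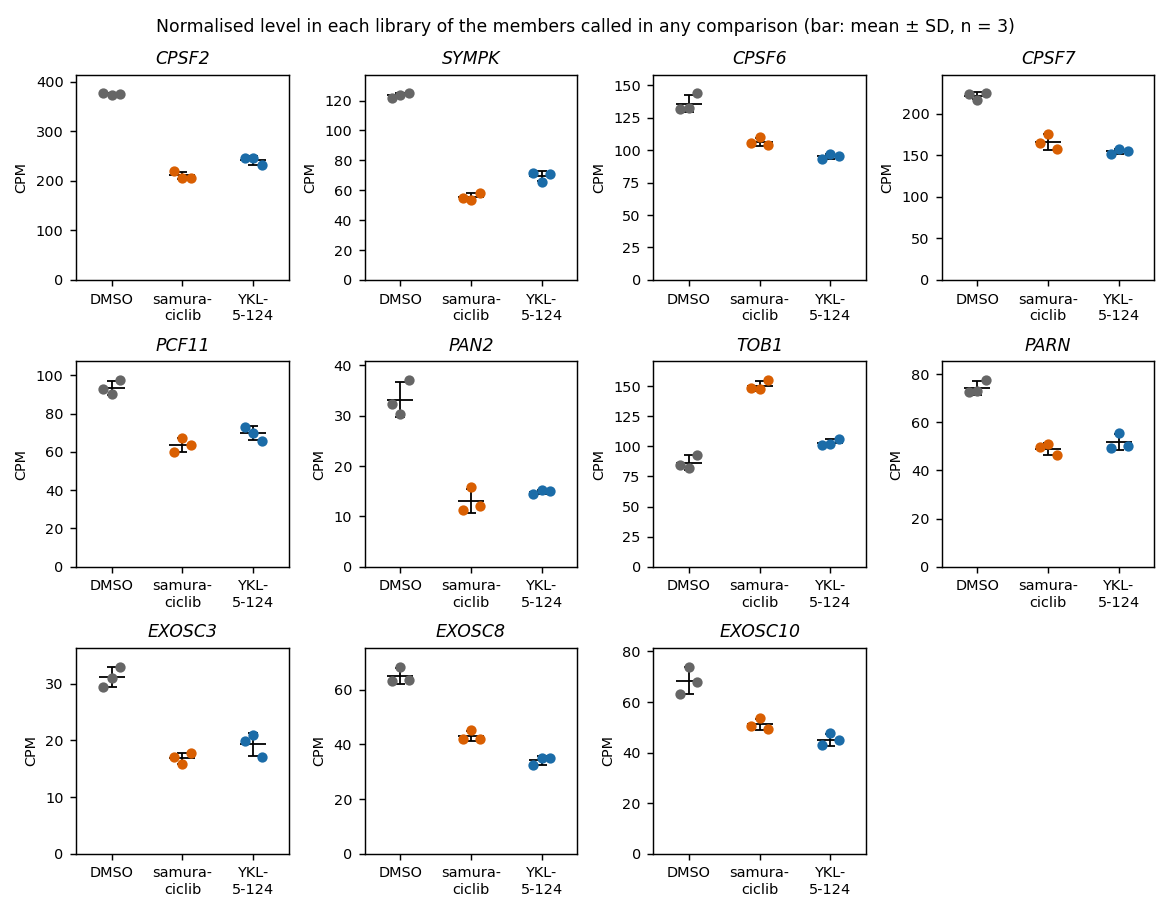
CPM in each library for the 11 members called in at least 1 comparison, on axes that start at 0. Dots are libraries and bars are mean ± SD of 3. DMSO lies above all treated libraries in every panel except that of TOB1, where samuraciclib is highest at 147 to 155 CPM.

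Summed over the 53 genes, the level was 5869.5, 5899.8 and 6099 CPM in the DMSO libraries, 5457, 5454 and 5347 CPM with samuraciclib and 5126, 5231 and 5050.1 CPM with YKL-5-124. Each treated library lay below each DMSO library, and on this scale the YKL-5-124 libraries lay below the samuraciclib libraries. Such sums are weighted to abundant genes. With DMSO, samuraciclib and YKL-5-124, PAPOLA averaged 960, 803 and 686 CPM, CPSF2 375, 211 and 241.5 CPM and NUDT21 349, 374 and 340 CPM. The median log2 change of the members was small, -0.074 upon samuraciclib and -0.078 upon YKL-5-124, and the sign of the latter depended on the scaling. The roles differed, given here for DMSO, samuraciclib and YKL-5-124. Cleavage and polyadenylation summed to 3072 to 3192, 2553 to 2594 and 2450 to 2524 CPM. Deadenylation summed to 1500 to 1602, 1555 to 1604 and 1426 to 1478 CPM. Decapping and 5′-3′ decay summed to 805 to 848, 860 to 884 and 801 to 846 CPM. The exosome summed to 451 to 484, 378 to 384 and 367 to 382 CPM. As a share of the library total, without TMM, the members took 0.564% to 0.578% of counts in the DMSO libraries. That share was 0.538% to 0.541% in the samuraciclib libraries and 0.529% to 0.543% in the YKL-5-124 libraries, so that the inhibitors overlapped.

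The inhibitors were compared with each other at the same dose to see where they differed. Only TOB1 was called among the 53 members, and it was lower with YKL-5-124 than with samuraciclib, -0.55 ± 0.052, adjusted p = 1.06e-06. Of all genes tested, 6.92% were called in this comparison, 2.46% being lower and 4.46% higher upon YKL-5-124. Among the 8650 genes at least as abundant as the lowest member, 2.95% were called, 1.64% lower and 1.31% higher. No member was called higher by edgeR or DESeq2, and 11 were higher at an unadjusted p below 0.05, where 2888 of all 16065 genes were. With library size alone as the scaling TOB1 stood at -0.48 and was not called. Without the 3 libraries low in 7SL RNA the count was again 1.

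At an adjusted p below 0.05 with no fold threshold, 6 members were higher and 11 lower with YKL-5-124, where 11.8% and 13.2% of all genes were. The higher ones included CPSF3 (0.39 ± 0.069, adjusted p = 5.49e-04), SYMPK (0.32 ± 0.053, adjusted p = 3.28e-04) and CPSF2 (0.19 ± 0.046, adjusted p = 0.00514), each lower with samuraciclib than with YKL-5-124. Among the lower ones were EXOSC8 (-0.33 ± 0.061, adjusted p = 7.29e-04), TOB2 (-0.26 ± 0.065, adjusted p = 0.00656), PAN3 (-0.25 ± 0.062, adjusted p = 0.00739) and PAPOLA (-0.23 ± 0.044, adjusted p = 0.00109). The 95% confidence interval of the difference was -0.057 to 0.43 for PAN2, -0.048 to 0.21 for PARN and 0.013 to 0.39 for EXOSC3, whose differences did not pass the test (adjusted p = 0.263, 0.372 and 0.112). For CPSF7, called with YKL-5-124 alone against DMSO, the difference between the inhibitors was -0.100 ± 0.047, adjusted p = 0.1304, with an interval of -0.198 to -0.0016.

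**Figure D5:**
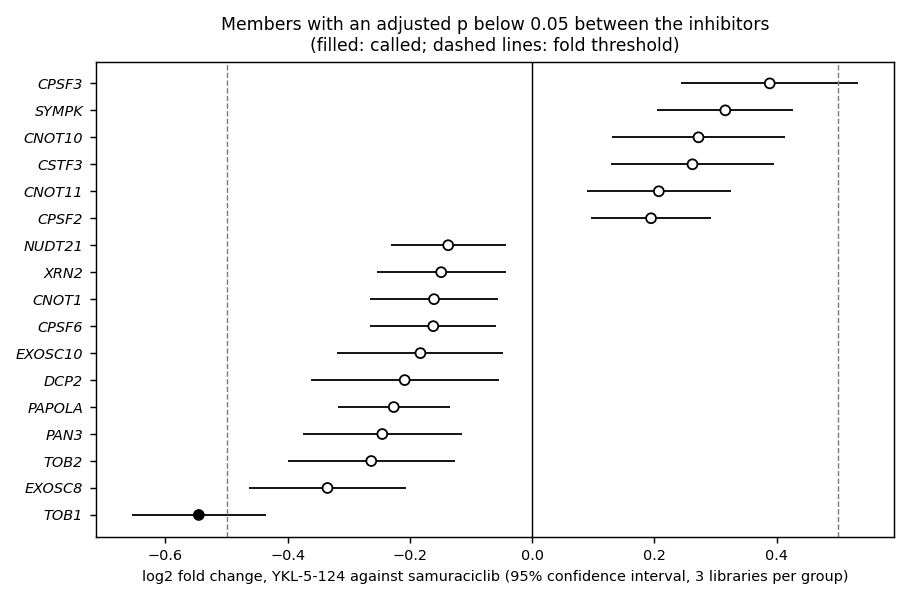
Log2 fold change of YKL-5-124 against samuraciclib, with its 95% confidence interval, for the 17 members with an adjusted p below 0.05 between the inhibitors. The filled point is TOB1, the one called member, and the dashed lines mark the fold threshold of 0.5.

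To place the members beside the rest of the pathway, 101 further genes in 6 lists were examined, all of which were tested. Upon YKL-5-124, 5 of them (4.95%) were upregulated and 10 (9.9%) downregulated, where 11.9% and 9.93% of all genes were. Upon samuraciclib 1 (0.99%) was upregulated and 9 (8.91%) downregulated, where 8.17% and 9.55% of all genes were. Among the 8650 genes at least as abundant as the lowest member, 5.09% were higher and 10.1% lower upon YKL-5-124. Upon samuraciclib these shares were 4.27% and 8.5%. The downregulated shares of the 101 genes thus lay near the background. Their upregulated share upon YKL-5-124 lay near that of the abundant genes. Their median log2 changes were -0.095 and -0.086.

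Of 10 poly(A)-binding proteins and partners, YKL-5-124 gave 3 lower and 1 higher and samuraciclib 1 lower and 1 higher. Of all genes, 9.93% were lower and 11.9% higher upon YKL-5-124, and 9.55% and 8.17% upon samuraciclib. PABPC1, the main cytoplasmic poly(A)-binding protein and the one through which PAN3 and the TOB proteins act, stood at 3644, 3798 and 4161 CPM in the DMSO libraries, 2969, 3059 and 2956 CPM with samuraciclib and 1904, 2083 and 1991 CPM with YKL-5-124. PABPC1 fell 1.94-fold upon YKL-5-124 (-0.96 ± 0.051, adjusted p = 6.33e-11) and was within the threshold upon samuraciclib (-0.37 ± 0.051, adjusted p = 1.14e-05). It was lower with YKL-5-124 than with samuraciclib, at -0.59 ± 0.051, adjusted p = 3.60e-07. PABPC1 has near-identical pseudogenes that could share its reads, so its counts are uncertain. PABPC4, a related cytoplasmic protein, fell from 497 ± 12.6 CPM (SD, n = 3) to 208 ± 8.42 CPM upon YKL-5-124 (-1.26 ± 0.049, adjusted p = 1.21e-12) and to 295 ± 9.97 CPM upon samuraciclib (-0.75 ± 0.048, adjusted p = 1.11e-09). It was lower with YKL-5-124 than with samuraciclib, at -0.502 ± 0.048, adjusted p = 1.24e-06, just past the threshold, and without samuraciclib 1 (-0.475) or YKL-5-124 2 (-0.476) it was not called. Nor was it called without the 3 libraries low in 7SL RNA (-0.493). Library size alone as the scaling (-0.432) and a mean count of at least 50 (-0.485) also ended this call. PAIP2B, an inhibitor of poly(A)-binding protein, rose upon YKL-5-124 (0.74 ± 0.11, adjusted p = 1.35e-05) and upon samuraciclib (0.82 ± 0.11, adjusted p = 5.17e-06), from 8.37 ± 0.476 CPM (SD, n = 3) to 13.996 ± 0.448 and 14.8 ± 1.796 CPM.

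Of 17 other 3′ end and tail enzymes, YKL-5-124 gave 2 higher and 1 lower, and samuraciclib 0 by edgeR or DESeq2, with 4 higher and 4 lower at an unadjusted p below 0.05. Upon samuraciclib 17.7% of all genes were called. Upon YKL-5-124, 11.8% of the list were higher and 5.88% lower, where 11.9% and 9.93% of all genes were. RPRD1A, which binds the tail domain of RNA polymerase II, rose (0.55 ± 0.055, adjusted p = 1.73e-07), as did the low-abundance poly(A) polymerase TENT5C (0.899 ± 0.19, adjusted p = 8.15e-04), at 1.78 ± 0.121 CPM with DMSO and 3.31 ± 0.423 with YKL-5-124. TUT4, which adds uridines to short tails, fell (-0.55 ± 0.068, adjusted p = 2.28e-06), a call lost without YKL-5-124 3 (-0.48) or with library size alone as the scaling (-0.42). TENT5C was also called higher with YKL-5-124 than with samuraciclib (0.58 ± 0.19, adjusted p = 0.0291), a call lost with DESeq2, with all genes that had a count, or without samuraciclib 1, samuraciclib 2 or YKL-5-124 2 (log2 from 0.464 to 0.575). Without the 3 libraries low in 7SL RNA it was 0.35 and not called (adjusted p = 0.356).

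Of 23 other deadenylases and adaptors, 0 were called upon YKL-5-124 by edgeR or DESeq2 (5 higher and 10 lower at an unadjusted p below 0.05). With edgeR, 21.8% of all genes were called. The share lower upon samuraciclib was 8.7%, where 9.55% of all genes were. Upon samuraciclib ANGEL2 (-0.67 ± 0.080, adjusted p = 2.09e-06) and ZFP36 (-0.58 ± 0.096, adjusted p = 8.42e-05), which brings CCR4-NOT to AU-rich mRNAs, fell, the latter not being called without DMSO 3 (-0.457) or samuraciclib 1 (-0.461). Of 17 other decapping factors, LSM7, a subunit of the LSM1-7 ring, fell upon YKL-5-124 (-0.81 ± 0.069, adjusted p = 2.50e-08) and upon samuraciclib (-0.81 ± 0.069, adjusted p = 3.92e-08), from 75.3 ± 4.498 CPM to 42.9 ± 3.97 and 42.9 ± 2.398 CPM. PNRC2, a coactivator of decapping, fell likewise (-0.78 ± 0.051 and -0.68 ± 0.051, adjusted p = 6.45e-10 and 7.17e-09), whereas PNRC1 (0.66 ± 0.11, adjusted p = 1.05e-04) and NUDT3 (0.56 ± 0.12, adjusted p = 0.00108, not called without YKL-5-124 3, 0.39) rose upon YKL-5-124.

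Among 18 exosome cofactors and other 3′-5′ nucleases, 2 (11.1%) were lower with each inhibitor, where 9.93% (YKL-5-124) and 9.55% (samuraciclib) of all genes were. ZFC3H1, which links the nuclear exosome to polyadenylated RNA, fell upon YKL-5-124 (-0.63 ± 0.090, adjusted p = 1.31e-05) and samuraciclib (-0.67 ± 0.090, adjusted p = 9.40e-06). TTC37, a subunit of the cytoplasmic SKI complex, fell upon YKL-5-124 (-0.69 ± 0.051, adjusted p = 4.42e-09), and ZCCHC8 fell upon samuraciclib (-0.53 ± 0.074, adjusted p = 1.46e-05), not being called without DMSO 3 (-0.456) or samuraciclib 1 (-0.455). The ZCCHC8 call was also lost without the 3 libraries low in 7SL RNA (-0.490) and with library size alone as the scaling (-0.467). Among 16 genes of nonsense-mediated decay, the endonuclease SMG6 and SMG9, a regulator of the kinase SMG1, were lower with each inhibitor. They are 12.5% of the list, beside the same background shares. SMG6 changed by -0.801 ± 0.083 and -0.62 ± 0.082, adjusted p = 2.77e-07 and 6.42e-06, upon YKL-5-124 and samuraciclib. SMG9 changed by -0.62 ± 0.069 and -0.73 ± 0.069, adjusted p = 6.20e-07 and 1.52e-07, in the same order. With library size alone as the scaling its YKL-5-124 value was -0.496 and the call was lost.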

How the data were processed

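The deposited data are whole-number counts of read pairs per gene for 9 libraries of FaDu cells, 3 per group. As the labels and the study's methods state, the authors aligned reads of poly(A)-selected RNA to GRCh38 with HISAT2 and made these counts with featureCounts 2.0.6 and a GENCODE annotation, whose release and strand setting are not given in the sources used here. The deposited counts are not normalized or filtered.

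From these counts, edgeR 4.0.16 was used to drop low genes (filterByExpr, 16065 of 58929 left), to scale libraries (TMM) and to test groups two-sidedly by quasi-likelihood (glmQLFTest on a single glmQLFit of the 9 libraries, no covariates). The study used DESeq2, which here (version 1.42.0) was an alternative. A gene was called at a Benjamini-Hochberg adjusted p below 0.05, over all genes tested, with a log2 fold change beyond 0.5. The SE is the size of the log2 fold change divided by the square root of F, and the interval uses the residual and prior degrees of freedom. CPM per kb divides CPM by the gene length in the table. The labels give the 3 samples of a group as separate replicates, so p-values cover the spread between cultures of 1 line. The fit was checked on simulated counts. Over the 3 comparisons it called 61.2% to 67.2% of genes changed 1.5-fold, 85.1% to 92.5% of those changed 2-fold and 98.5% to 100% of those changed 4-fold. It made 4 to 10 false calls per comparison. A member that was not called may thus still have changed by about 1.5-fold.

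The members and the further lists were chosen with earlier results of these data known. Values in every library were given for called members, up to 12 per comparison, for catalytic and scaffold members and for paralogs, together with PAN3 and PABPC1, which were added after their values were seen. Ratios of SYMPK and CPSF2 to CPSF1, PAN2 to PAN3, EXOSC3 to EXOSC2 and EXOSC8 to EXOSC9 were outside this rule. Each sets a called member against an uncalled one. Of the further lists, at most 4 called genes per list and comparison were named. Libraries of a group were compared for duplication, and none agreed within sampling noise. Promoters came from RefSeq and exons from GENCODE 44. Alternatives were RLE scaling, library size alone, DESeq2, 2 other filters on low counts, fits of 6 libraries, glmTreat, no fold threshold, a replicate block and leaving out each library.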

Additional observations from a re-analysis of the deposited data

How the results depend on the processing

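No called member changed direction under any alternative, but with library size alone as the scaling the median change of the 53 members turned from -0.078 to 0.050 upon YKL-5-124 and from -0.019 to 0.051 between the inhibitors and shrank from -0.074 to -0.015 upon samuraciclib, while that of all genes went from 0.014 to 0.14, from 0.0079 to 0.077 and from 0.0012 to 0.0604 (the cause was not tested). Upon YKL-5-124 against DMSO, library size alone as the scaling gave 1 member higher and 5 lower (2802 genes higher and 1052 lower in all), glmTreat gave 4 members lower (696 genes higher and 762 lower in all), and dropping the fold threshold gave 8 members higher and 20 lower (3878 and 4041 genes in all). A mean count of at least 50 left 1218 genes higher and 1121 lower in all, with 6 members lower, the calls of CPSF6, CPSF7 and PARN being lost at -0.48 each. Upon samuraciclib, library size alone gave 3 members higher and 6 lower (1622 genes higher and 1219 lower in all, PCF11 being lost at -0.498), glmTreat 4 lower (411 genes higher and 571 lower in all) and no fold threshold 7 higher and 21 lower (3381 and 3706 genes in all). Between the inhibitors, library size alone gave 0 members higher or lower (982 genes higher and 253 lower in all), glmTreat 0 (38 genes higher and 33 lower in all) and no fold threshold 6 higher and 11 lower (1888 and 2115 genes in all). Library size alone moved the share of calls that were higher from 54.5% to 72.7% for YKL-5-124, from 46.1% to 57.1% for samuraciclib and from 64.5% to 79.5% between the inhibitors. glmTreat tests against the threshold itself, and under it EXOSC3 (adjusted p = 0.0541), EXOSC10, CPSF6, CPSF7 and PARN were lost upon YKL-5-124, PCF11, PARN and EXOSC8 upon samuraciclib, and TOB1 between the inhibitors.

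Leaving out 1 library gave 7 to 10 members lower upon YKL-5-124, 7 without DMSO 3 and 10 without YKL-5-124 2, and gave 7 lower and 1 higher upon samuraciclib and 1 lower between the inhibitors. The replicate block gave 9 lower and 0 higher, 7 lower and 1 higher, and 1 lower, the same counts as without it. Replicate numbers share no stated culture or day. The deviations of same-numbered libraries correlated at -0.0877 to 0.0842 for YKL-5-124 and DMSO, -0.0794 to 0.0683 for samuraciclib and DMSO and 0.0679 to 0.228 between the inhibitors, where every library correlated best with its own number, a hint from the data and not the design. The highest, 0.228, joined samuraciclib 2 and YKL-5-124 2, both low in 7SL RNA. They also correlated with DMSO 3, low as well, at 0.182 and 0.185. The part of 7SL RNA in this was not tested. Depth limits the least abundant members, since 30 of the 53 had under 1000 counts in some library.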
